A study of Mus musculus with 12 samples.

Results

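The 3 Hivep loci comprised 71 of the 63309 regions measured by ATAC-seq in thymic invariant natural killer T (iNKT) cells. ATAC-seq counts the sites where the Tn5 transposase cuts open chromatin. A region was taken as a member when it overlapped the body of Hivep1, Hivep2 or Hivep3, as annotated by GENCODE vM21 on mm10, or the 10 kb on either side. The rule itself uses no measured value. Hivep1 held 14 regions, Hivep2 36 and Hivep3 21.

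The study asked how loss of HIVEP3 affects the chromatin of the iNKT1, iNKT2 and iNKT17 subsets, which are named for their type 1, type 2 and type 17 cytokine programmes. The 12 libraries comprised 2 of each subset from each genotype. All came from untreated mice aged 8-9 weeks, either wild-type C57BL/6 or Hivep3-/-, a germline knockout on the C57BL/6 background, so that every cell of the animal lacks the intact gene. The deleted stretch of Hivep3 is not given in the sources used here. Cells were sorted by CD122, ICOS, Izumo1r and CD138 from pooled thymi, the subsets were combined for the transposase reaction, and they were separated again by ICOS and CD138. The titles number mice while the protocol describes pools, so nothing shows that the 2 libraries of a group came from separate animals, and p-values measure only the spread between these libraries.

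HIVEP proteins, also called Schnurri proteins, are very large zinc finger transcription factors that bind NF-κB-like (κB) sites and also act as adaptors for signalling proteins. HIVEP2 is known for restraining NF-κB activity and type 2 helper T cell differentiation and for its part in thymic selection. HIVEP3 is known for binding TRAF2, for cooperating with the AP-1 factor Jun at the Il2 promoter, and for lowering RUNX2 protein in bone through the ubiquitin ligase WWP1.

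The sequences that the results below turn on are given first, as plus-strand bases of mm10. The first 3 lie at the gene starts, which were open in every library. The others are the central 300 bases of 8 regions of 500 bp that lie within introns. They were chosen to show each pattern described below among the regions that were called between subsets or genotypes. For short, such a region is called an intron here, without regard to which intron holds it. Not shown are 2 Hivep1 introns with larger differences, each with values at the lowest level of a library, and 3 other Hivep3 introns with the iNKT1 pattern. Capitals mark matches on either strand to κB (GGGNNNTTCC), T-box (GGTGTGA), Runt (TGTGGTT), ROR (TAGGTCA), TCF (CTTTGAT) or AP-1 (TGANTCA) letters, and adjacent capitals can belong to overlapping matches.
Hivep1 promoter (chr13:42051525-42051824): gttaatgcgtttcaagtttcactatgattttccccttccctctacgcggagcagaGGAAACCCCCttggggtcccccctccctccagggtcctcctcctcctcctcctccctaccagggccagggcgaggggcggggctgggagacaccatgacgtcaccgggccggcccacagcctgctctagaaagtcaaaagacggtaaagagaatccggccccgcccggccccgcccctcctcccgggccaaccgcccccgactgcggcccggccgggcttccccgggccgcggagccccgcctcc
Hivep2 promoter (chr10:13965567-13965866): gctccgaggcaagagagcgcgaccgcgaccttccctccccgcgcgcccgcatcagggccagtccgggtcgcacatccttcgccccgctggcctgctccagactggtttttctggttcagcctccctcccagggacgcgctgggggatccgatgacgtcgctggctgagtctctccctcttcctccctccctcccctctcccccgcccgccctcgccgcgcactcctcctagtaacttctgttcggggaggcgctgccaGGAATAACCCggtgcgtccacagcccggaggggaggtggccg
Hivep3, 250 bases before the gene start (chr4:119733534-119733783): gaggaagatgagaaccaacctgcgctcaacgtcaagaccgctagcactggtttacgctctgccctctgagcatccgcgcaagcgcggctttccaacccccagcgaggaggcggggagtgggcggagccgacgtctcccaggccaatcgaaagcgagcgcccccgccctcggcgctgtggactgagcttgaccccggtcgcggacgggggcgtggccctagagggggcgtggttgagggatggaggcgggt
Hivep1 intron, open in iNKT17 (chr13:42110410-42110709): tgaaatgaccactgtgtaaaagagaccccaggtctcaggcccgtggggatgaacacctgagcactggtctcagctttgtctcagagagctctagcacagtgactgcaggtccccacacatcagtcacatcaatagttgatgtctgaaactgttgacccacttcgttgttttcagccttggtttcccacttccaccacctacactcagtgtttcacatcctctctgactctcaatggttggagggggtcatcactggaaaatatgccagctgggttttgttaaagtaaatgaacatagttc
Hivep1 intron, higher in Hivep3-/- (chr13:42113844-42114143): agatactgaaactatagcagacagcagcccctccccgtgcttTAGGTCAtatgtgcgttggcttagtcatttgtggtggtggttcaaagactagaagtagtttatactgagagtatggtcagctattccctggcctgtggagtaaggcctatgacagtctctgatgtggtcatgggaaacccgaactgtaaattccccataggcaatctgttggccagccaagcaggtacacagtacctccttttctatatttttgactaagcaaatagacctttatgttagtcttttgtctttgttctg
Hivep2 intron, open in iNKT1 (chr10:14027182-14027481): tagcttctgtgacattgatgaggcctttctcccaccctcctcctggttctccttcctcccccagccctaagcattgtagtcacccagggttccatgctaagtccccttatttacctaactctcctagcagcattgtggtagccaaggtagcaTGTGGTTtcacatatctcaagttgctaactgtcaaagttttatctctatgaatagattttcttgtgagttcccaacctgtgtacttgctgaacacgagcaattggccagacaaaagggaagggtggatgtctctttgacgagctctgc
Hivep2 intron, open in iNKT2 (chr10:14052336-14052635): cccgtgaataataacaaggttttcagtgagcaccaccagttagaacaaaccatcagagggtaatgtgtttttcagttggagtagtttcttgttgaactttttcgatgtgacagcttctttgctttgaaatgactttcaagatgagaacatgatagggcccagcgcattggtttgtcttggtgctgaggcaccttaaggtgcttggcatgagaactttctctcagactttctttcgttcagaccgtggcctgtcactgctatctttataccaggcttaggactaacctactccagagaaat
Hivep3 intron, low in iNKT17 (chr4:119785024-119785323): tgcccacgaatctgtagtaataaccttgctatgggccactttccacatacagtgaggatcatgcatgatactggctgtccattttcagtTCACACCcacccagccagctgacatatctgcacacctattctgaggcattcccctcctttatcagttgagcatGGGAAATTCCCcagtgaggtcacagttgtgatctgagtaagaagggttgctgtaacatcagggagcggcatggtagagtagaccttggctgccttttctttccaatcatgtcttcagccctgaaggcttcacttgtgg
Hivep3 intron, open in iNKT1 and iNKT2 (chr4:119812759-119813058): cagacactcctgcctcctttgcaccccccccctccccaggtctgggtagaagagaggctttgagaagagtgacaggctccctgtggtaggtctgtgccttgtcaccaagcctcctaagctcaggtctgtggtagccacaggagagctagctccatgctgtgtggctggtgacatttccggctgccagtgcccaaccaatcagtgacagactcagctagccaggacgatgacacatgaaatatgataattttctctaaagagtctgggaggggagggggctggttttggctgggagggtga
Hivep3 intron, open in iNKT1 (chr4:119897603-119897902): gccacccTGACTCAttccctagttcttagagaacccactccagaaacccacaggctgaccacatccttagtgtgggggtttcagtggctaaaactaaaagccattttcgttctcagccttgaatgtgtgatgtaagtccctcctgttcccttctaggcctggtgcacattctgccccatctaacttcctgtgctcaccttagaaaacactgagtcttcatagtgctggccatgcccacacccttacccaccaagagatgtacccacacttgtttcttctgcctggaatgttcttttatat
Hivep3 intron, with a genotype change in iNKT1 (chr4:119921148-119921447): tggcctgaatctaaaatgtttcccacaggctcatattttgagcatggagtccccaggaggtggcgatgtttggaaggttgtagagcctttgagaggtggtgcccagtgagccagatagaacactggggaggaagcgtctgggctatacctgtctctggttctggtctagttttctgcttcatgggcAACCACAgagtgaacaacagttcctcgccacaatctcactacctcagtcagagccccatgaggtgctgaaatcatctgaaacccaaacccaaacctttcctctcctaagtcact

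The promoter sequences were rich in G and C, at 69.0% for Hivep1, 69.7% for Hivep2 and 68.0% for Hivep3, whereas the intronic windows held 43.3% to 56.0%. A κB match occurred in the central 300 bases of 10 of the 71 regions and of 6.41% of all regions. Of these 10, Hivep1 and Hivep2 each held 4 and Hivep3 held 2. Both printed promoters of Hivep1 and Hivep2 carried 1 κB match on the minus strand, and the Hivep3 intron that was low in iNKT17 cells carried a pair of overlapping κB matches. T-box letters were found in 5 members (5.86% of all regions), Runt letters in 6 (13.7%), ROR letters in 3 (3.75%), TCF letters in 4 (5.31%) and AP-1 letters in 7 (11.5%). These are matches to letters only and no measure of binding.

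Values are log2 insertions per kb, normalized by the authors between libraries, and a region was called accessible in a group at a linear mean of at least 5 insertions per kb. Normalization set the library totals equal, so the depth behind a value is unknown. A proxy that grows with depth, the count of distinct values in the lower part of each library, ran from 73 to 491. It was higher in Hivep3-/- than in C57BL/6 libraries of iNKT1 cells and lower in those of iNKT2 and iNKT17 cells. Replicates of the members had a median SD of 0.140 on the log2 scale, against 0.132 for all regions. In these bulk samples, fewer cells with an open region and less opening per cell cannot be told apart. Start-site regions were highest in their own subset in both genotypes for 5 of 5 iNKT1 markers, 3 of 5 iNKT2 markers and 5 of 5 iNKT17 markers. Of 12 markers of B cells, myeloid cells, thymic epithelium and double-positive thymocytes, 9 had no region within 1000 bp of a start site, and Pax5, Spi1 and Epcam did. The Pax5 level was 7.56 to 24.6 insertions per kb over the 6 groups, that of Spi1 18.1 to 39.2 and that of Epcam 8.83 to 16.1, and their part in the results was not tested.

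Hivep3, the targeted gene, spans 404 kb on the plus strand (ENSMUSG00000028634.17, chr4:119733784-120138045) and was the most sparsely covered locus, with 4.95 regions per 100 kb. Hivep1 (ENSMUSG00000021366.8, chr13:42052021-42192537) had 8.72 and Hivep2 (ENSMUSG00000015501.10, chr10:13966075-14151374) had 17.5 regions per 100 kb. Of the 71 regions, 61 were intronic, 9 lay within 1000 bp of a start site of the gene, and 1 lay upstream of Hivep1 at the start of the long noncoding RNA Gm28707. The Hivep2 window also contains the noncoding genes Gm26835 and Gm28289, and the Hivep3 window contains AL607142.1. The regions touched 3 of the 26 annotated exons of Hivep3, 2 of 22 of Hivep2 and 0 of 20 of Hivep1. ATAC-seq at these regions therefore does not test the deletion itself.

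At the start of Hivep3 (chr4:119733529-119734028), C57BL/6 libraries held 6.53 and 6.50 in iNKT1, 6.72 and 6.63 in iNKT2 and 6.64 and 6.53 in iNKT17 cells. Hivep3-/- libraries held 6.46 and 6.51, 6.36 and 6.44, and 6.50 and 6.51. The promoter of the knocked-out gene was thus open to nearly the same degree in all 12 libraries, with group means spanning 0.28. It was 0.28 lower in Hivep3-/- iNKT2 cells (SE 0.08, limma adjusted p = 0.0322), below the 3-fold threshold. A pair of regions lies at an internal start 299 to 300 kb downstream. The stronger of them (chr4:120032199-120032698) had a mean of 5.42 in C57BL/6 iNKT1, 6.17 in iNKT2 and 5.37 in iNKT17 cells.

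The mean over each locus, a level on the log2 scale, put the family members in different orders. For Hivep1, the C57BL/6 libraries held 2.81 and 2.88 in iNKT1, 2.70 and 2.65 in iNKT2 and 4.78 and 4.85 in iNKT17 cells. For Hivep3, they held 3.46 and 3.51, 3.38 and 3.44, and 2.14 and 2.15. Hivep1 was thus highest and Hivep3 lowest in iNKT17 cells, with no overlap with the other subsets, while iNKT1 and iNKT2 were within 0.23 of each other at both loci. For Hivep2, all 12 libraries lay between 3.98 and 4.31.

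**Figure D1:**
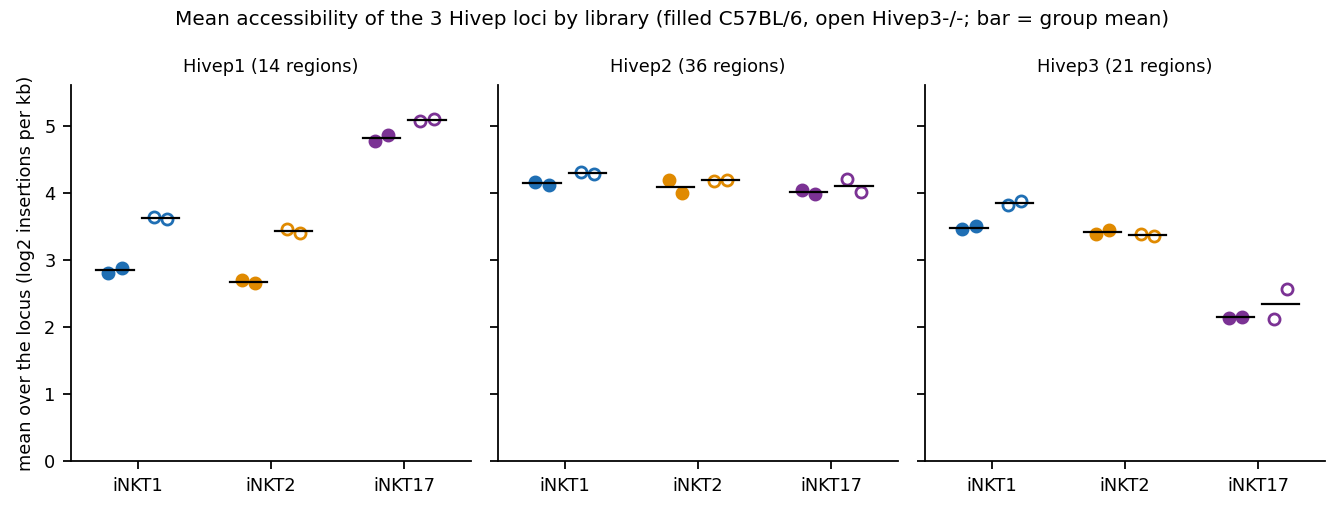
Mean log2 insertions per kb over the regions of each Hivep locus, with 1 point per library (filled, C57BL/6; open, Hivep3-/-) and a bar at the group mean. Hivep1 was highest and Hivep3 lowest in iNKT17 cells, and Hivep2 lay between 3.98 and 4.31 in every library.

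**Figure D2:**
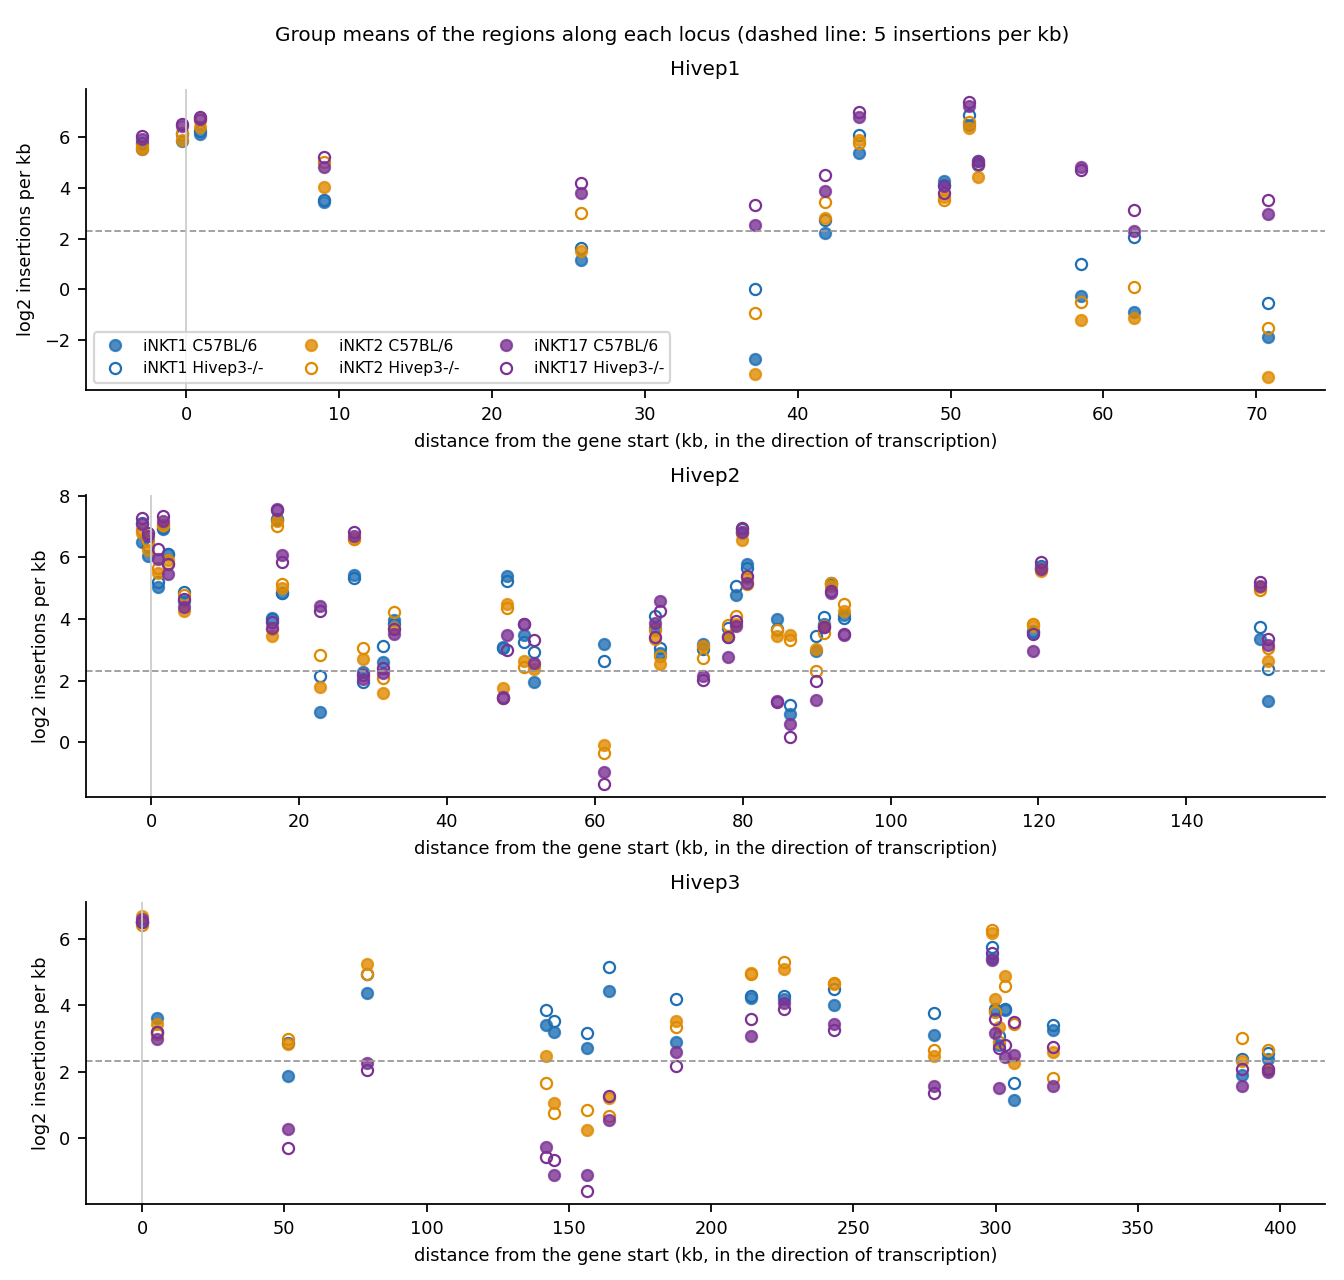
Group mean in log2 insertions per kb (y axis) of each region against its distance from the gene start in kb (x axis), coloured by subset, filled for C57BL/6 and open for Hivep3-/-. Values near the gene starts were high in all 6 groups, and the subsets separated in the introns.

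To ask where the subsets differed, limma was run on regions accessible in either of the compared groups, and a region was called when it differed 3-fold or more with an adjusted p below 0.1. Comparisons that involve the same subset share its libraries. In C57BL/6 mice, 6 of 64 tested members were called between iNKT1 and iNKT2 cells, where 16% of all tested regions were called. Between iNKT1 and iNKT17 cells 20 of 66 were called (20.5% of all), and between iNKT2 and iNKT17 cells 15 of 63 (16.2% of all). In Hivep3-/- mice the counts were 9 of 67 (17.3% of all), 20 of 69 (19.3% of all) and 9 of 65 (15.6% of all). A region passes the filter through the group where it is open, so these counts cover only the members tested.

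Over the 6 comparisons, 30 of the 71 members were called at least once, against 34.8% of all regions tested. All 30 were intronic, and 0 of the 9 promoter regions were called. The share called among promoter regions of all genes was not counted, so whether this is particular to these loci was not tested. They were 7 of 14 regions of Hivep1, 10 of 36 of Hivep2 and 13 of 21 of Hivep3. Between iNKT1 and iNKT17 cells, 15 regions were called in both genotypes, 75.0% of either list. Between iNKT1 and iNKT2 cells 5 were shared (83.3% of the C57BL/6 and 55.6% of the Hivep3-/- list), and between iNKT2 and iNKT17 cells 8 were (53.3% and 88.9%), each in the same direction in both genotypes.

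**Figure D3:**
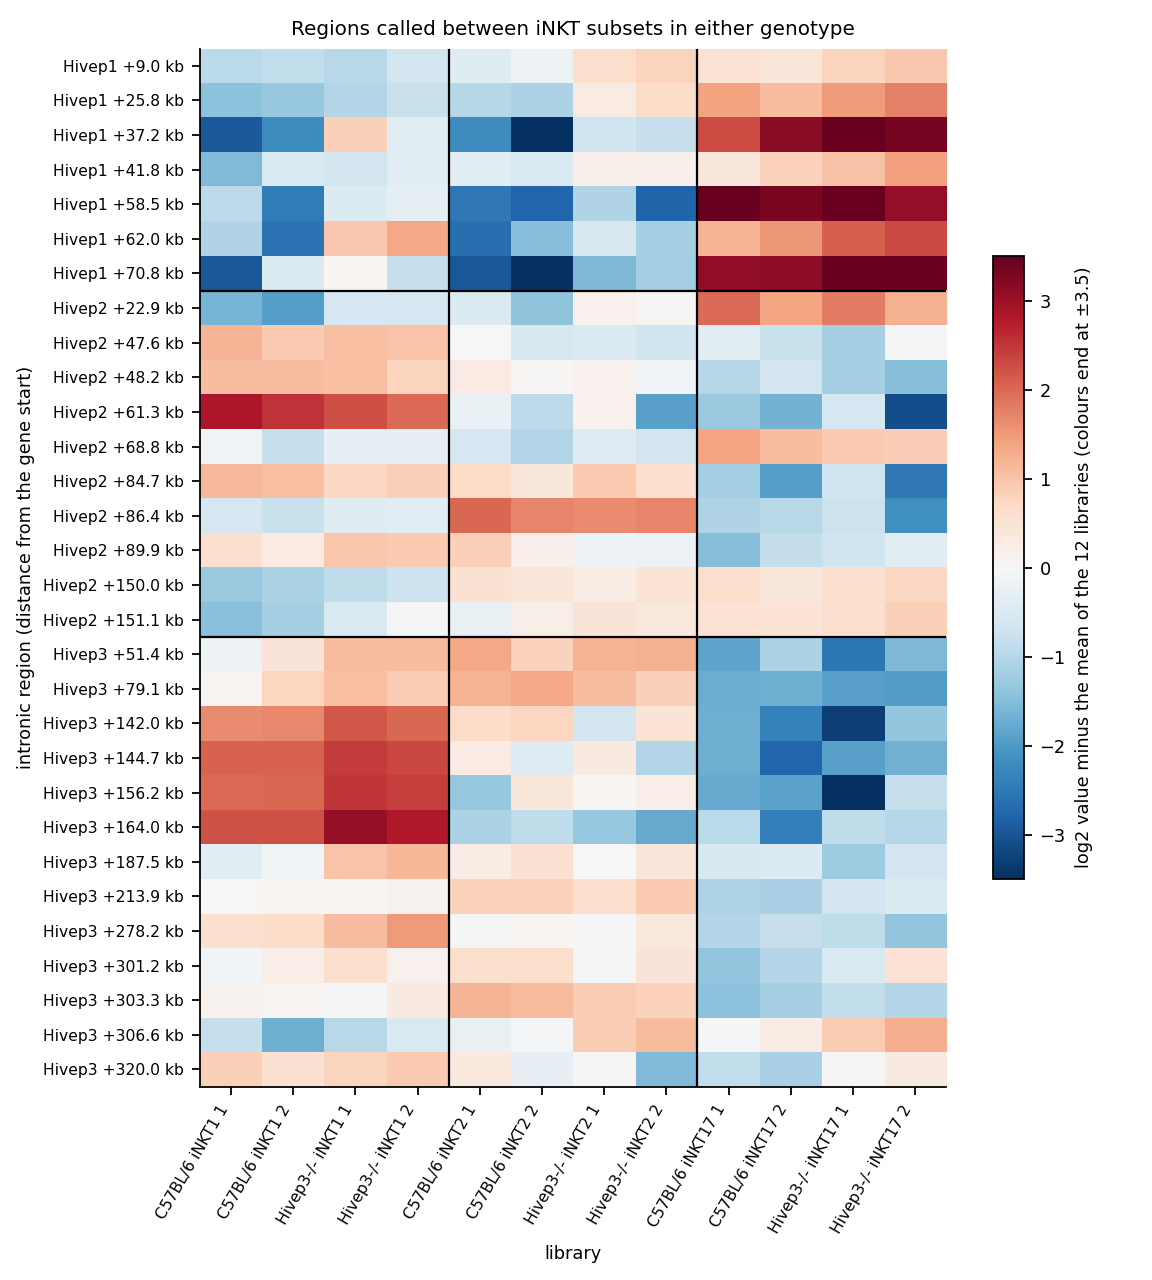
Log2 value of each of the 30 called intronic regions (vertical axis, by gene and distance from the gene start) in each library (horizontal axis, grouped by subset), minus its mean over the 12 libraries. The 7 Hivep1 regions were high in the iNKT17 columns, and the Hivep3 regions between 142 and 164 kb were high in the iNKT1 columns.

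At Hivep1, all 7 called regions were higher in iNKT17 than in the compared subset. Relative to iNKT1 cells they were 5 of 13 tested in C57BL/6 (10.8% of all regions were called in this direction) and 6 of 14 in Hivep3-/- mice (9.83%). Relative to iNKT2 cells they were 4 of 13 (8.49%) and 4 of 14 (8.25%). The intronic region 58.5 kb from the start (chr13:42110310-42110809) held 4.97 and 4.72 in C57BL/6 iNKT17 cells, against 0.51 and -1.01 in iNKT1 and -1.06 and -1.35 in iNKT2 cells. In Hivep3-/- mice it held 4.88 and 4.51, against 0.94 and 1.09, and 0.37 and -1.38. It was accessible in the iNKT17 groups alone, with a difference of 6.05 between iNKT17 and iNKT2 cells of C57BL/6 mice (SE 0.56, adjusted p = 1.64e-06), and its printed sequence matched none of the 6 motifs.

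A region 70.8 kb from the Hivep1 start (chr13:42122597-42123096) had the same order, at 2.94 and 2.98 in C57BL/6 iNKT17, -3.12 and -0.67 in iNKT1 and -3.12 and -3.79 in iNKT2 cells. One iNKT1 library was at the lowest value it can take, so the size of that difference rests on the constant added before the logarithm. A region 25.8 kb from the start (chr13:42077571-42078070) showed it without values at that limit, at 3.94 and 3.63 in iNKT17, 1.11 and 1.21 in iNKT1 and 1.55 and 1.44 in iNKT2 cells. iNKT1 cells were 2.63 below iNKT17 cells there (SE 0.25, adjusted p = 1.24e-06).

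At Hivep3, the direction was the opposite. In C57BL/6 mice, 6 of 19 tested regions were lower in iNKT17 than in iNKT1 cells (9.72% of all regions) and 6 of 17 were lower than in iNKT2 cells (7.72%), with 0 called the other way. In Hivep3-/- mice, 8 of 21 were lower in iNKT17 than in iNKT1 cells (9.48%) and 3 of 17 were lower than in iNKT2 cells (7.33%), and 1 region was called the other way. It lay 306.6 kb from the start (chr4:120040122-120040621), is named after its values were seen, and was 1.83 lower in iNKT1 than in iNKT17 cells (SE 0.32, adjusted p = 0.000271).

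A run of 4 neighbouring intronic regions of Hivep3, at 142.0, 144.7, 156.2 and 164.0 kb, were highest in iNKT1 cells of both genotypes. The last (chr4:119897503-119898002) held 4.44 and 4.43 in C57BL/6 iNKT1, 1.10 and 1.34 in iNKT2 and 1.29 and -0.17 in iNKT17 cells, and in Hivep3-/- mice 5.26 and 5.02, 0.90 and 0.44, and 1.32 and 1.23. The iNKT1 libraries stood apart from all others, by 3.22 from iNKT2 (SE 0.39, adjusted p = 1.72e-05) and by 3.88 from iNKT17 cells (adjusted p = 1.97e-06) in C57BL/6 mice. Its printed window holds 1 AP-1 match.

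The Hivep3 intron at 79.1 kb (chr4:119812659-119813158) was open in both iNKT1 and iNKT2 cells. It held 4.04 and 4.70 in C57BL/6 iNKT1, 5.18 and 5.32 in iNKT2 and 2.23 and 2.27 in iNKT17 cells, and in Hivep3-/- mice 5.02 and 4.86, 5.06 and 4.81, and 2.08 and 2.00. The difference between iNKT2 and iNKT17 cells was 3.00 in C57BL/6 (SE 0.20, adjusted p = 1.34e-07) and 2.90 in Hivep3-/- mice (adjusted p = 1.99e-07). The κB-bearing intron at 51.4 kb (chr4:119784924-119785423) was also lowest in iNKT17 cells. It held 3.09 and 2.57 in C57BL/6 iNKT2 and -0.10 and 0.64 in iNKT17 cells. Unlike the intron at 79.1 kb, it was below 5 insertions per kb in C57BL/6 iNKT1 cells. In Hivep3-/- mice it was higher than in iNKT17 cells by 3.15 in iNKT1 and by 3.27 in iNKT2 cells.

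Near the internal start, the intron at 303.3 kb (chr4:120036875-120037374) was highest in iNKT2 cells. It held 4.93 and 4.84 in iNKT2, 3.85 and 3.83 in iNKT1 and 2.29 and 2.57 in iNKT17 cells of C57BL/6 mice. The difference between iNKT2 and iNKT17 cells was 2.46 (SE 0.18, adjusted p = 2.59e-07), and the value in iNKT1 cells lay between them. The intron at 213.9 kb (chr4:119947476-119947975) had the same order, with 4.97 and 4.96, 4.18 and 4.23, and 3.10 and 3.02.

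Hivep2 held separate intronic regions for each subset. The intron at 61.3 kb (chr10:14027082-14027581) was accessible in iNKT1 cells alone, at 3.35 and 3.05 in C57BL/6 iNKT1, 0.27 and -0.41 in iNKT2 and -0.78 and -1.15 in iNKT17 cells. It exceeded iNKT2 by 3.27 (SE 0.78, adjusted p = 0.00324) and iNKT17 by 4.17 (adjusted p = 0.000443), and its printed window holds 1 Runt match.

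The intron at 86.4 kb (chr10:14052236-14052735) was accessible in iNKT2 cells alone. It held 3.64 and 3.32 in C57BL/6 iNKT2, 1.02 and 0.82 in iNKT1 and 0.57 and 0.64 in iNKT17 cells, and in Hivep3-/- mice 3.28 and 3.33, 1.20 and 1.23, and 0.87 and -0.55. The iNKT2 libraries of both genotypes stood above all others, by 2.56 over iNKT1 (SE 0.41, adjusted p = 0.000171) and by 2.88 over iNKT17 (adjusted p = 6.21e-05) in C57BL/6 mice.

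The Hivep2 intron at 22.9 kb (chr10:13988714-13989213) was highest in iNKT17 cells, at 4.73 and 4.13, against 1.11 and 0.82 in iNKT1 and 2.24 and 1.34 in iNKT2 cells of C57BL/6 mice. iNKT1 was 3.46 below iNKT17 there (SE 0.32, adjusted p = 9.25e-07). The intron at 150.0 kb (chr10:14115817-14116316) was low in iNKT1 cells alone, at 3.26 and 3.45, against 5.10 and 4.98 in iNKT2 and 5.17 and 4.94 in iNKT17 cells. These opposite patterns in 1 gene accompanied nearly equal locus means.

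**Figure D4:**
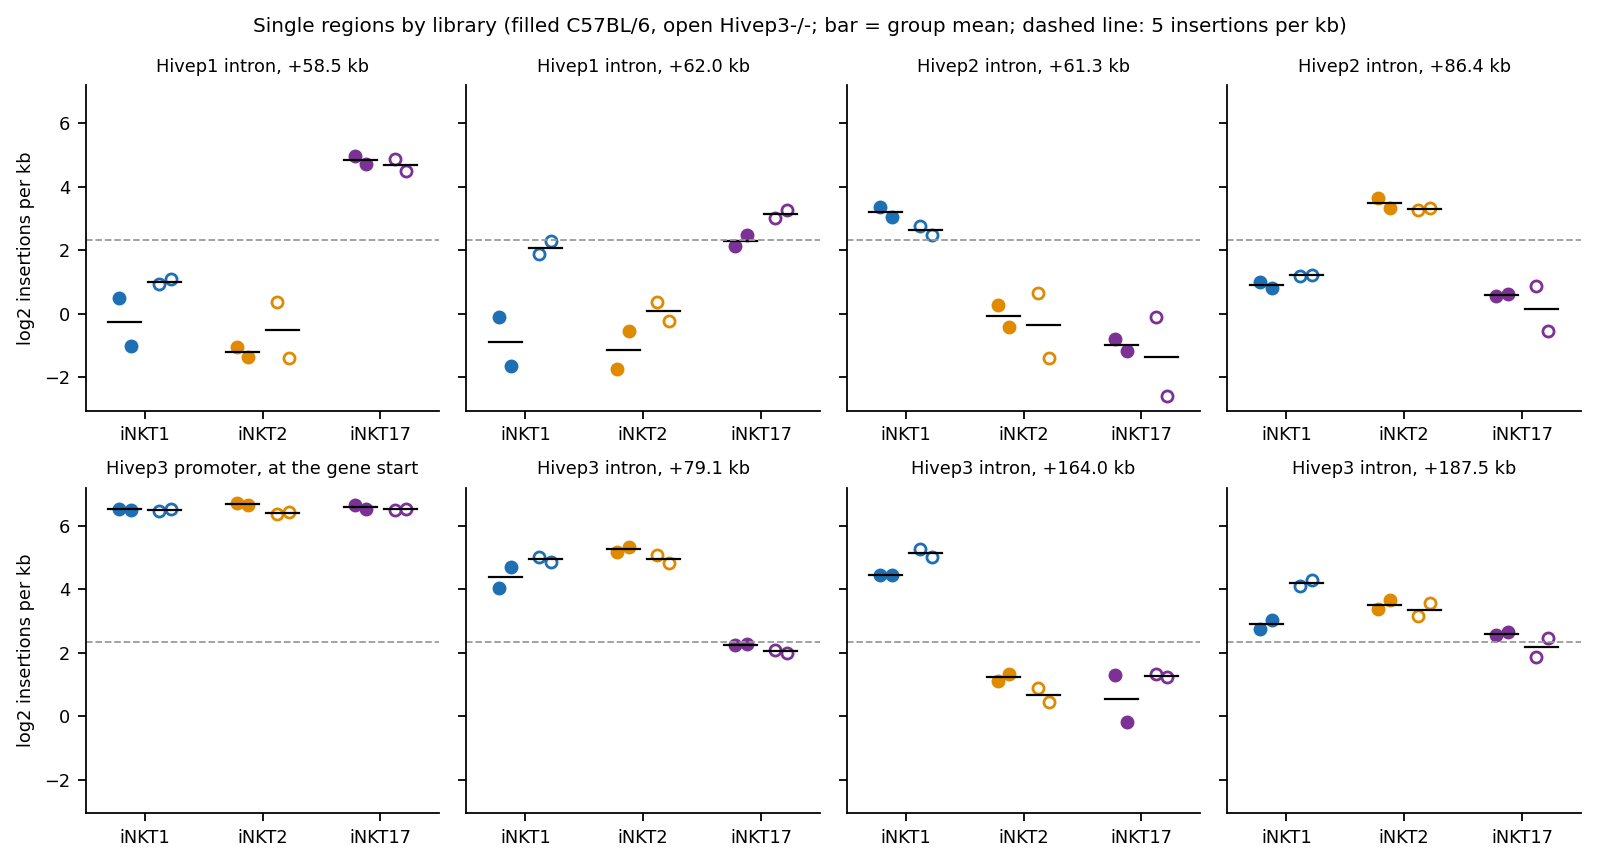
Log2 insertions per kb (y axis) of 8 single regions in the 12 libraries by subset (x axis), filled for C57BL/6 and open for Hivep3-/-, with a bar at the group mean and a dashed line at 5 insertions per kb. The Hivep3 promoter lies at 6.36 to 6.72 in all libraries, while each intron shown is above the dashed line in some groups and not in others, and at 187.5 kb the Hivep3-/- iNKT1 libraries stand highest.

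To ask whether loss of HIVEP3 changed these loci, the genotypes were compared within each subset. Among members tested, limma called 0 of 62 for iNKT1 cells (1.15% of all regions were called), 0 of 61 for iNKT2 (1.68%) and 0 of 55 for iNKT17 cells (0.271%). An unadjusted p under 0.05 was found for 14 (17.8% of all), 16 (25.3% of all) and 13 (15.8% of all) of them, and an adjusted p under 0.1 at any fold for 8 (9.42% of all), 8 (16.4% of all) and 2 (4.65% of all). With 1 library left out, the last counts were 2 to 8, 3 to 10 and 0 to 3, with 2 in iNKT1 cells without either replicate 1 of C57BL/6 or replicate 2 of Hivep3-/- iNKT1 cells, and with the replicate number as a block they were 11, 14 and 10. The shares of all regions in these alternative fits are not given here, so such shifts cannot be told apart from general ones. The median difference, Hivep3-/- minus C57BL/6, was 0.17 for members in iNKT1 cells, where it was -0.02 for all regions. It was 0.10 (all regions, -0.00108) for iNKT2 and 0.18 (all regions, -0.01) for iNKT17 cells.

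Small differences leaned towards higher values in Hivep3-/- mice. Both Hivep3-/- libraries exceeded both C57BL/6 libraries at 35 of the 71 members for iNKT1 cells (49.3%, and 25.2% of all regions), at 28 for iNKT2 (39.4%, and 27.2%) and at 30 for iNKT17 cells (42.3%, and 21.8%). Both lay below at 9 (12.7%, and 28.3%), 11 (15.5%, and 25.6%) and 9 (12.7%, and 22.3%). The Hivep3 locus in iNKT2 cells did not share this lean, with 5 of 21 regions above (23.8%) and 7 below (33.3%). Neighbouring regions of 1 locus are not independent of each other.

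On the average of the 3 subsets, the median difference was largest at Hivep1, a gene intact in both genotypes. Among the regions tested within a subset, Hivep1 had the largest median for iNKT2 cells alone, 0.27 against -0.10 at Hivep3. For iNKT1 cells the median of Hivep3 was larger, 0.32 against 0.24, as it was for iNKT17 cells, 0.29 against 0.17. All 14 Hivep1 regions entered the average, but 9 were tested for iNKT1 and 10 for iNKT2 cells. The Hivep1 locus mean was 2.81 and 2.88 in C57BL/6 against 3.64 and 3.61 in Hivep3-/- iNKT1 cells. It was 2.70 and 2.65 against 3.46 and 3.39 in iNKT2 cells, and 4.78 and 4.85 against 5.07 and 5.09 in iNKT17 cells. The genotypes did not overlap in any subset. A large part of the gap lay in introns that were closed in iNKT1 and iNKT2 cells. In iNKT1 cells, the differences were 2.78 at 37.2 kb, 1.26 at 58.5 kb, 2.96 at 62.0 kb and 1.36 at 70.8 kb, all below 5 insertions per kb in both genotypes, while the 9 accessible regions had a median difference of 0.24. On the average of the 3 subsets, 13 of its 14 regions had a positive difference, with a median of 0.38 (all regions, -0.01), and 10 of the 14 rose at an adjusted p under 0.1, as did 10.5% of all regions. These 10 took in the upstream region, a promoter region and 8 introns.

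On that average, 2 of the 71 members were called at 3-fold (0.529% of all), and both were Hivep1 introns. The intron at 62.0 kb (chr13:42113744-42114243), which holds a ROR match, was at -0.11 and -1.65 in C57BL/6 and 1.88 and 2.29 in Hivep3-/- iNKT1 cells, at -1.72 and -0.55 and 0.37 and -0.22 in iNKT2 cells, and at 2.13 and 2.49 and 3.01 and 3.25 in iNKT17 cells. It was higher in Hivep3-/- in all 3 subsets without overlap, by 1.67 on average (SE 0.32, adjusted p = 0.00419), but in C57BL/6 mice it was near the limit of 5 insertions per kb only in iNKT17 cells. The intron at 37.2 kb (chr13:42088930-42089429) differed by 2.00 (SE 0.43, adjusted p = 0.00783), with 1 C57BL/6 library of iNKT1 and 1 of iNKT2 cells at their lowest possible value. Neither region was called with 1 or 5 added to the linear values before the logarithm.

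Hivep1 introns that were accessible in either genotype of a subset differed as well. In iNKT2 cells, the one at 9.0 kb (chr13:42060781-42061280) held 3.92 and 4.17 in C57BL/6 and 4.96 and 5.13 in Hivep3-/- libraries, and the one at 25.8 kb held 1.55 and 1.44 and 2.83 and 3.19. The first rose by 1.00 (SE 0.16, adjusted p = 0.00213) and the second by 1.51 (SE 0.25, adjusted p = 0.00232), both without overlap and below 3-fold. The second was below 5 insertions per kb in C57BL/6 iNKT2 cells and was tested only through the Hivep3-/- libraries. In iNKT1 cells, the intron at 44.0 kb (chr13:42095758-42096257), named after its values were seen, held 5.36 and 5.37 in C57BL/6 and 6.11 and 6.11 in Hivep3-/- libraries, a rise of 0.74 (SE 0.13, adjusted p = 0.0052).

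With 1 library left out in turn, 7 to 11 of the 14 Hivep1 regions rose at an adjusted p under 0.1 on the average of the subsets, and 7 to 10 of them were among the 10 of the full data. With 1 or 5 added to the linear values, the same 10 rose, but the median difference was 0.27 and 0.22. The depth proxy was higher in Hivep3-/- than in C57BL/6 libraries in iNKT1 cells and lower in iNKT2 and iNKT17 cells, and its part in the difference was not tested.

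At Hivep2, 25 of 36 regions had a positive difference on the average of the subsets, with a median of 0.08, and 8 rose at an adjusted p under 0.1, beside 10.5% of all regions. They included the promoter region printed above (chr10:13965467-13965966), at 6.02 and 6.06 in C57BL/6 and 6.29 and 6.46 in Hivep3-/- iNKT1 cells, 6.32 and 6.17 and 6.44 and 6.63 in iNKT2 cells, and 6.66 and 6.71 and 6.75 and 6.80 in iNKT17 cells. The average rise was 0.24 (SE 0.05, adjusted p = 0.00952). The genotypes did not overlap in any subset, and the differences were 0.34, 0.29 and 0.09.

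At Hivep3 itself, the median change was negative in iNKT2 cells alone, and that sign rested on 1 library. Without replicate 1 of Hivep3-/- iNKT2 cells, the median there was 0.04. In iNKT1 cells 18 of 20 tested regions had a positive difference, with a median of 0.32, and 2 rose at an adjusted p under 0.1 (5.49% of all). In iNKT2 cells 8 of 18 were positive, with a median of -0.10, and 1 rose (8.26% of all) while the promoter fell. In iNKT17 cells 8 of 12 were positive, with a median of 0.29, and 2 rose (2.66% of all). With 1 library left out, the rises numbered 1 to 2 in iNKT1, 0 to 1 in iNKT2 and 0 to 3 in iNKT17 cells. The Hivep3-/- iNKT17 libraries differed from each other, with locus means of 2.12 and 2.57.

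**Figure D5:**
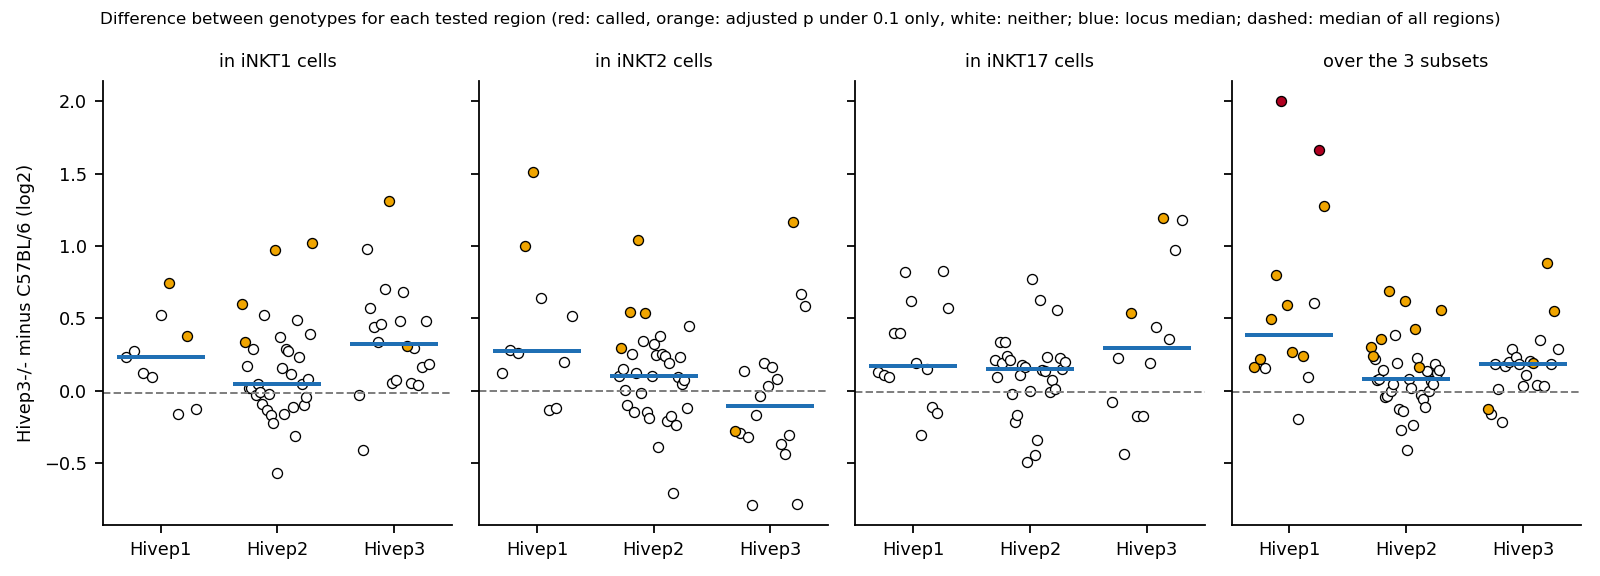
Log2 difference between Hivep3-/- and C57BL/6 (y axis) of each tested region, by gene and along the gene from left to right, with a panel for each subset and a panel for their average. Red points were called, orange points had an adjusted p under 0.1 only, white points neither, the blue bar is the median of the locus and the dashed line the median of all regions. Hivep1 has a median of 0.38 and the 2 called regions in the last panel.

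To test directly whether the genotype change differed between subsets, interaction terms were fitted. Between iNKT1 and iNKT17 cells, limma called 1 of 69 tested members (1.42% of all). Between iNKT1 and iNKT2 cells it called 0 of 67 (3.06% of all), and between iNKT2 and iNKT17 cells 0 of 66 (1.02% of all). An unadjusted p under 0.05 was found for 10 (14.2% of all), 13 (20.8% of all) and 14 members (14.9% of all). With the replicate number as a block, 2 members were called between iNKT2 and iNKT17 cells in place of 0. The share of all regions in that fit is not given here. The region called between iNKT1 and iNKT17 cells was the Hivep3 intron at 187.5 kb (chr4:119921048-119921547). It held 2.75 and 3.03 in C57BL/6 and 4.11 and 4.28 in Hivep3-/- iNKT1 cells, 3.37 and 3.66 and 3.14 and 3.55 in iNKT2 cells, and 2.55 and 2.65 and 1.88 and 2.45 in iNKT17 cells.

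In this Hivep3 intron, the genotypes separated upwards in iNKT1 and downwards in iNKT17 cells and overlapped in iNKT2 cells. The change in iNKT1 cells was 1.31 (SE 0.24, adjusted p = 0.00636), that in iNKT17 cells was -0.43 (adjusted p = 0.429), and the difference between the changes was 1.74 (SE 0.35, adjusted p = 0.023). Without replicate 2 of Hivep3-/- iNKT1 cells the adjusted p was 0.126, and without replicate 1 of Hivep3-/- iNKT17 cells the difference was 1.46, under 3-fold. Its printed window holds 1 Runt match on the minus strand.

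Around Hivep3, within 5 Mb of the gene, 1 of 276 tested regions was called between the genotypes for iNKT1 cells (0.362%, and 1.15% of all regions). For iNKT2 cells 2 of 281 were called (0.712%, and 1.68% of all), and for iNKT17 cells 2 of 296 (0.676%, and 0.271% of all). All were higher in Hivep3-/- mice. Regions of the Hivep loci were left out of these counts, so the counts say nothing about the Hivep3 window itself.

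The partners and targets named above, with NF-κB subunits, the inhibitor gene Nfkbia and the BMP signal transducers Smad1 and Smad5, through which HIVEP proteins are also known to act, were taken as a list of 13 genes (Nfkb1, Nfkb2, Rel, Rela, Relb, Nfkbia, Traf2, Jun, Il2, Runx2, Wwp1, Smad1 and Smad5) with 93 regions. In iNKT1 cells 1 of 85 tested regions was called between the genotypes (1.15% of all), a region of Nfkb1, which encodes the p50 subunit of NF-κB (chr3:135665751-135666250, 1.80 higher in Hivep3-/-, SE 0.11, adjusted p = 2.65e-06). In iNKT2 cells 2 of 83 were called (1.68% of all), both at Runx2, the Runt factor of bone and T cells (chr17:44555851-44556350, lower by a log2 difference of -1.82, SE 0.53, adjusted p = 0.0431, and chr17:44557036-44557535, -2.09, SE 0.21, adjusted p = 0.000109). In iNKT17 cells 0 of 86 were called. Median differences of the list were 0.07, 0.14 and 0.04. An interaction of genotype with iNKT1 against iNKT2 was called at 6 of 87 regions (3.06% of all), 4 of Runx2 and 2 of Nfkb1.

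By Pearson correlation of the locus mean over the 12 libraries, among 7723 genes with at least 5 regions, the loci most like Hivep1 were N4bp1 (r = 0.989), Rhbdf2, Rasgef1b, March3 and Vamp4. Those most like Hivep3 were Zfp407 (0.986), Pitpnm2os1, Iffo2, Arap3 and Gm42838, and those most like Hivep2 were Arid5b (0.852), Gm28888, Gm19589, Gm29538 and Lamtor1. The libraries share their normalization and come from 3 subsets, so these values are descriptions.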

How the data were processed

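ATAC-seq reads were, according to the study's methods and the submitters' processing notes, mapped to mm10 in the ENCODE pipeline after trimming by Trimmomatic 0.39 to 50 bp, and counted as insertions in merged 500 bp regions, without the Y chromosome or blacklisted peaks. The authors deposited log2 insertions per kb after voom normalization, and all 12 columns were mapped to a library. Depth is unknown, since totals were set equal.

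Group means of all 12 libraries were fitted in limma 3.58.1 (R 4.3.3, 6 residual and 7.17 prior degrees of freedom, variance trend) over all regions, with Benjamini-Hochberg adjustment within each of 13 comparisons over regions whose linear mean reached 5 in a compared group. The fit was tested on simulated data with 200 changed regions per subset. Other steps used Python 3.11.15, numpy 2.4.6, pandas 2.3.3, pysam 0.24.0 and matplotlib 3.10.9. Sequences came from GRCm38.p6, the assembly behind mm10. Coordinates are 1-based, and distances run to a region's centre.

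Members and lists were chosen with earlier results of these data known. Named regions are, per gene, up to 4 at start sites, the highest, and up to 10 called with the largest differences, unless stated otherwise. Same-numbered libraries carry the same mouse number within a genotype. Their deviations from group means correlated at 0.120 to 0.167 between subsets of 1 genotype and at 0.0911 to 0.174 between genotypes, so the correlation was not particular to a shared mouse number, and the number was fitted as a block in an alternative. Other alternatives were no filter, pseudocounts of 1 and 5, renewed quantile normalization, no variance trend, a 2-fold threshold and leaving out each library.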

Additional observations from a re-analysis of the deposited data

Results flagged for a closer look

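One value stood out because the change between genotypes differed between subsets by a test of the difference itself. Between iNKT1 and iNKT17 cells, that test called 1 of 69 members (1.45%), close to the 1.42% of all regions called. At the Hivep3 intron 187.5 kb from the gene start, the genotype change in iNKT1 cells exceeded that in iNKT17 cells by 1.74 on the log2 scale (limma adjusted p = 0.023). The adjusted p ranged from 0.00226 to 0.126 over the alternatives, and the difference was 1.56 with 1 and 1.13 with 5 added to the linear values.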

How the results depend on the processing

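Counts below are members called. The share of all regions called under each alternative is not given here. A shift in these counts therefore cannot be told apart from a shift over all regions. Without the filter on low values, the genotype comparison called 2 in iNKT1 and 1 in iNKT2 cells, all Hivep1 introns. At a 2-fold threshold it called 2, 4 and 1 in iNKT1, iNKT2 and iNKT17 cells, the subset comparisons iNKT1 against iNKT2 and iNKT1 against iNKT17 called 11 and 31 in C57BL/6, iNKT1 against iNKT2 and iNKT2 against iNKT17 called 18 and 21 in Hivep3-/- mice, and the interaction of iNKT1 and iNKT2 called 1. With a pseudocount of 5, the 3 subset comparisons called 1, 3 and 4 in C57BL/6 and 1, 5 and 3 in Hivep3-/- mice. With a pseudocount of 1 or 5, both the average over subsets and the interaction of iNKT1 and iNKT17 called 0, and with renewed quantile normalization the average called 1. A pseudocount shrinks differences between low values by construction. The replicate block raised the interaction of iNKT2 and iNKT17 from 0 to 2 and changed no other count of 3-fold calls.

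Leaving out 1 library gave 0 to 0 calls for the genotype comparison in iNKT1, 0 to 1 in iNKT2 and 0 to 1 in iNKT17 cells, 1 to 2 for the average, and 0 to 1, 0 to 2 and 0 to 1 for the interactions. For the average, the call at the intron 62.0 kb from the Hivep1 start was lost without replicate 2 of C57BL/6 iNKT1, replicate 1 of C57BL/6 iNKT2 or replicate 1 of Hivep3-/- iNKT2 cells. The subset comparisons gave 6 to 6, 17 to 20 and 15 to 15 in C57BL/6 and 7 to 9, 18 to 20 and 9 to 10 in Hivep3-/- mice. Where this left 1 library in a group, it was assumed to vary like the others. Of the 77 calls at named regions, 60 were kept under each omission, 60 were lost with a pseudocount of 5, and 0 reversed.

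Within 5 Mb of Hivep3, the counts in iNKT1, iNKT2 and iNKT17 cells and on average were 0, 0, 0 and 0 with a pseudocount of 5 and 6, 8, 4 and 7 at 2-fold. Without the filter they were 3 in iNKT1 and 4 in iNKT17, with a pseudocount of 1 they were 1 in iNKT17 and 0 on average, and without the variance trend 1 in iNKT2 and 0 in iNKT17. Leaving out 1 library gave 1 to 3, 0 to 4, 0 to 2 and 1 to 4. The cause of these shifts was not tested. Values near the lowest level of a library, unknown depth and 2 libraries per group limit the size of any difference in closed introns.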

Other observations

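The called regions nearest to the Hivep3 gene body lay outside its window and were named after their values were seen. At chr4:119689354-119689853, 43.9 kb upstream, C57BL/6 iNKT1 libraries held 1.02 and 1.34 and Hivep3-/- iNKT1 libraries 3.44 and 3.73, a rise of 2.41 on the log2 scale (SE 0.27, limma adjusted p = 0.000214). In iNKT2 cells the same region held 3.03 and 2.47 against 3.55 and 4.10 (adjusted p = 0.0222, under 3-fold), and in iNKT17 cells the adjusted p was 0.79. At chr4:120161055-120161554, 23.0 kb downstream, the average over the subsets was 1.64 higher in Hivep3-/- mice (SE 0.34, adjusted p = 0.00687). The region was accessible in iNKT2 cells alone, where the difference was 0.54 (adjusted p = 0.628), and 1 C57BL/6 library of iNKT17 cells was at its lowest value, so the average was carried by the subsets in which the region was closed.

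Within 1 Mb of Hivep1, 5 of 33 tested regions were called between the genotypes in iNKT2 cells, all higher in Hivep3-/- mice, a share of 15.2% beside 1.68% of all regions. The corresponding count was 1 of 36 in iNKT1 and 0 of 37 in iNKT17 cells, and within 1 Mb of Hivep2 it was 0 in each subset. Regions of the Hivep loci were left out of these counts, so none of the 5 could lie in the Hivep1 window. These counts were singled out after their values were seen.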
